A study of Mus musculus with 22 samples.

Results

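The transcripts of 8 adipokine genes, Lep, Adipoq, Retn, Cfd, Rbp4, Apln, Nampt and Rarres2, were followed in the epididymal fat of single mice. They were chosen by name as well-known secreted products of fat, with earlier results of these data known. All 8 passed the filter on dim probes, among 16578 genes tested. The mice were male C57BL/6JOlaHsd, an inbred strain, 10 weeks old on arrival. Per the labels' protocols, fat supplied 10% of the energy of their purified diet for the first 3 weeks and 40% for the next 6 weeks. A mention of low-fat feeding in the treatment protocol names no mice, so that diet was not modelled. After fasting, 12 mice stayed at 20.9% oxygen (normoxia) and 10 were kept at 12% oxygen (hypoxia) for 6 hours in a calorimetry system. The RNA of a mouse, labelled with Cy5, shared an Agilent array with a pool of all samples labelled with Cy3. Each gene's value below is a mouse's log2 ratio to that pool, centred within each array. The dyes were not swapped, so 0 need not be a gene's level in the pool. Each difference is hypoxia minus normoxia.

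Adipokines are proteins that adipose tissue releases into the circulation or its surroundings. Leptin reports fat stores to the brain and adiponectin raises insulin sensitivity, while others carry retinol, take part in complement activation, attract immune cells or act on vessels. In cultured fat cells low oxygen has been described to raise leptin and lower adiponectin, and the hypoxia-inducible factors (HIF) that respond to it bind a short core, ACGTG or GCGTG. Transcription of leptin is also driven by C/EBP proteins, which bind the palindrome TTGCGCAA among other sites.

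Adipoq and Retn formed the pair of adipokines with the highest Pearson correlation over all mice. The stretches of transcript that reported them are shown for that reason. By rank correlation Retn with Rbp4 was higher, at 0.66 against 0.60. Both 60-base probes have an open reading frame. The files place the Adipoq probe at chr16:23157576-23157635 and this Retn probe at chr8:3657312-3657371 on mm9, both on the plus strand.
Adipoq: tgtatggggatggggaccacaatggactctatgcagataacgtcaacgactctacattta
Retn: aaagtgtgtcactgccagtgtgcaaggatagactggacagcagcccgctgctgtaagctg

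The other probes lie at chr6:29023234-29023293 for Lep, chr10:79355302-79355361 for Cfd and chr12:33535475-33535534 for Nampt, on the plus strand. On the minus strand the files give chr19:38191120-38191179 for Rbp4, chrX:45378593-45378652 for Apln and chr6:48519775-48519969 for Rarres2. The Rarres2 interval spans 195 bases for a 60-base probe. A second Retn probe lies at chr8:3659757-3659816. No genome of this build was used, and whether a probe lies in an exon or a UTR was not analysed here.

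A pair of promoters is shown because these hold the searched motifs: that of Nampt for the HIF cores and that of Lep for the C/EBP palindrome. Both are the 250 bases before the start site in RefSeq, build GRCm38.p6, plus strand, at chr6:29059971-29060220 for Lep and chr12:32820085-32820334 for Nampt. Capitals mark TTGCGCAA in Lep, whose first base lies at -55 from the start site. In Nampt they mark 5 matches to GCGTG and 1 to ACGTG, where CACGC and CACGT are the same motifs on the opposite strand. None of the marked matches overlap.
Lep: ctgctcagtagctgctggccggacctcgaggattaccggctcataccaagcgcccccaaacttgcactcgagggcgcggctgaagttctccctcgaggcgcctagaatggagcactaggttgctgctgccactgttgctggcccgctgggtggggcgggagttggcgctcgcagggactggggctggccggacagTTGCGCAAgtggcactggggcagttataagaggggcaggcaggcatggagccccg
Nampt: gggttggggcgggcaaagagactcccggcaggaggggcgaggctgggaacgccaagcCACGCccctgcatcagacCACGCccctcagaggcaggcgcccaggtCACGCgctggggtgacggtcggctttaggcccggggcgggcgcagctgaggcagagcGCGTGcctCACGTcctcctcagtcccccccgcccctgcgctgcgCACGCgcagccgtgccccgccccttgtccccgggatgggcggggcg

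The search covered both strands of the 8 promoters listed for 7 of the genes, all but Rarres2. ACGTG and GCGTG occurred in Nampt and in one of the promoters of Rbp4, against 16.6% and 28.2% of the 32851 promoters of the RefSeq table. TTGCGCAA occurred in Lep, against 0.164% of the promoters. The DR1 element of PPAR and RXR was found in 0 of the 8, against 0.0335%. These are matches of letters in a short window and not measured binding.

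Before the values, the arrays need a description. They lie on 6 slides, of which 5 hold 2 mice of each group and slide 2 holds 2 normoxia mice alone. Slide 1, which holds replicates 3 and 5 of normoxia and 5 and 7 of hypoxia, was dim: at most 18.9% of an array's spots passed the scanner software's background test in Cy5, against at least 29.8% elsewhere. Adipoq on slide 1 ran from 0.55 to 1.67, against -0.43 to 0.59 on all other arrays. Differences are therefore given with and without it where leaving it out moved them by more than 1.5 times, and also for Lep and Adipoq. All 12 adipocyte markers looked for were bright enough to be tested, among them the lipid droplet coat Plin1, the fatty acid carrier Fabp4 and the lipase Lipe. Markers of sperm and epididymis, a neighbouring organ, were highest in normoxia replicate 1. Relative to each marker's mean over all arrays, the 4 tested averaged 3.26 in this mouse. This mouse also had the highest Lep and the lowest Adipoq and Cfd of its group. Without it the group differences described below were 0.34 for Lep, 0.10 for Adipoq and 0.15 for Cfd.

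None of the 8 adipokine transcripts passed the test between hypoxia and normoxia. In limma's moderated test with Benjamini-Hochberg adjustment over all genes, 0 of 16578 genes passed (0%), and the adjusted p-values of the 8 lay between 0.963 and 0.997. At an unadjusted p under 0.05 the count was 0 of 8, against 5.3% of all genes (879). The mean was higher in hypoxia for 7 of the 8, all but Rbp4, against 50.4% of all genes. The median difference of the 8 was 0.15, against 0.001 over all genes. The within-group SD of 6 of the 8 lay above the median of all genes (0.23), and that of 4, Lep, Adipoq, Cfd and Apln, above the 90th percentile. Without slide 1 these counts were 5 and 3: Adipoq fell from an SD of 0.49 to 0.266, at the 70th percentile, while Lep (0.46), Cfd (0.554) and Apln (0.449) stayed above the 90th.

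**Figure D1:**
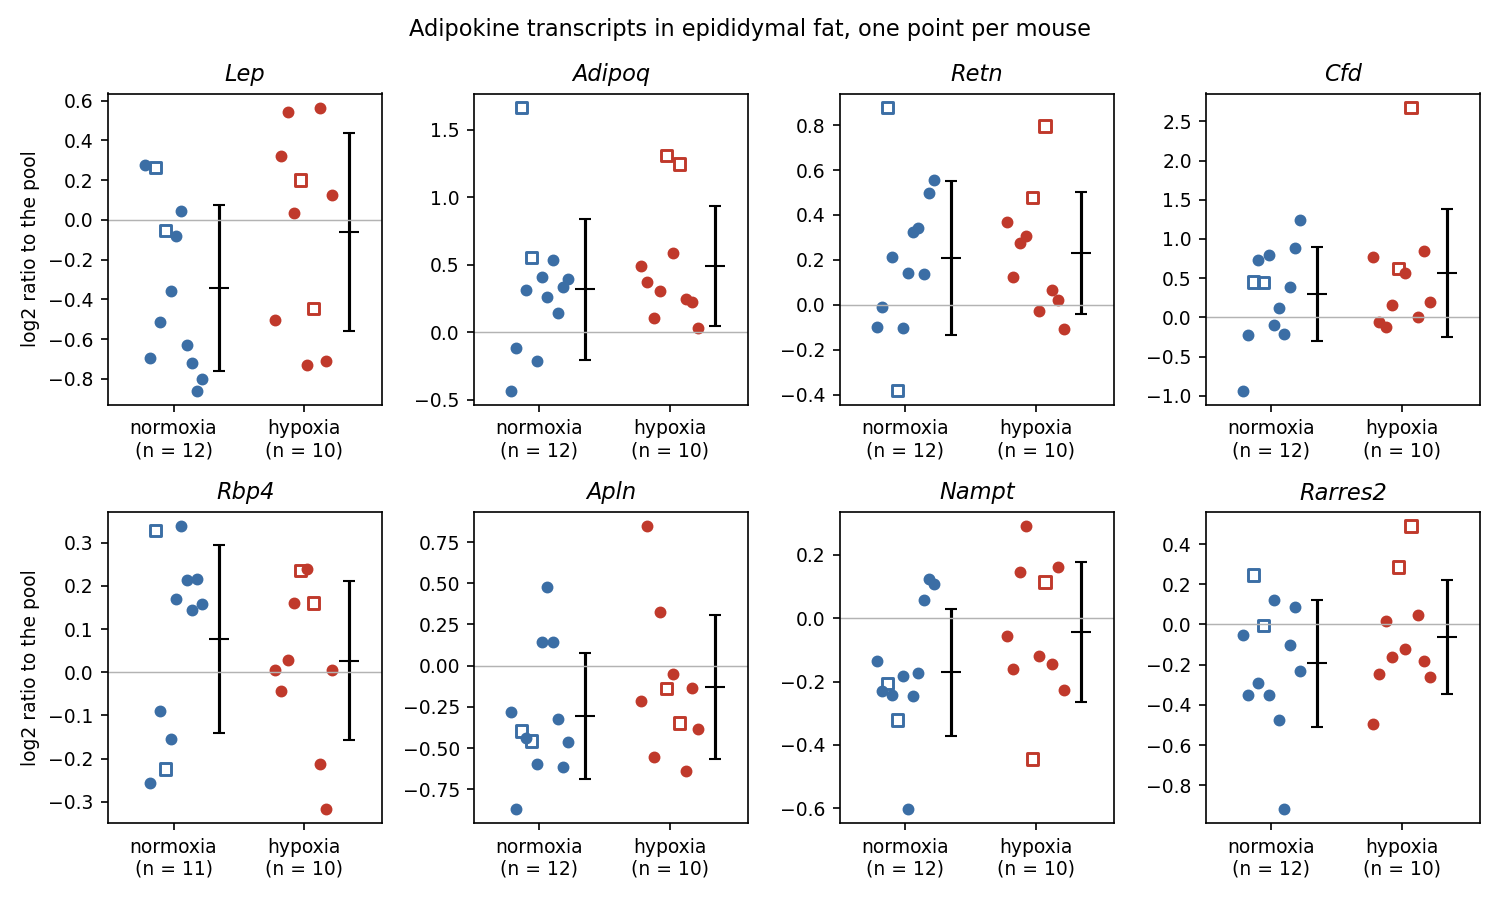
Log2 ratio to the pool of each adipokine transcript, with a panel per gene and a point per mouse, normoxia in blue (12 mice, 11 for Rbp4) and hypoxia in red (10). Black bars are the mean and SD of a group, and open squares mark the arrays of slide 1. The groups overlap for every gene, and Cfd in one hypoxia mouse reaches 2.67.

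Lep encodes leptin, the satiety hormone of fat. Its values in normoxia ran from -0.86 over a median of -0.43 to 0.28, with a mean of -0.34 ± 0.42 (SD, n = 12). In hypoxia they ran from -0.73 over a median of 0.08 to 0.57, with a mean of -0.06 ± 0.50 (SD, n = 10). The groups overlapped over nearly their whole range: 6 of the 10 hypoxia mice lay above the normoxia mean, 3 of them above the highest normoxia mouse, and the other 4 lay below that mean. The difference was 0.28 ± 0.18 (SE), or 1.22-fold, with a 95% interval of -0.08 to 0.65 and a limma p of 0.118 (adjusted p = 0.963). Without slide 1 the difference was 0.39 ± 0.19 (SE; limma p = 0.0534, adjusted p = 0.996). Over the alternative runs it ranged from 0.19 to 0.39, the latter with array quality weights (limma p = 0.0375, adjusted p = 0.497). Within slides the difference was positive in 3 of 5, at 0.75, 0.13 and 0.69, and negative in the other two, at -0.23 and -0.25.

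The Lep probe is printed 10 times on each array, which measures the error between spots but not that of RNA preparation, labelling or hybridisation, which the spots share. The SD between its spots on an array had a median of 0.211 and ran from 0.088 to 0.353. The standard error of an array's mean over the spots was 0.068 at the median. The within-group SD between mice was 0.455, at the 95.9th percentile of all genes, and 0.46 without slide 1.

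Adipoq encodes adiponectin, an abundant hormone made almost only by fat cells. In normoxia it ran from -0.43 over a median of 0.32 to 1.67 and in hypoxia from 0.03 over 0.34 to 1.31. The medians of the groups nearly coincided and the highest 3 values belonged to slide 1. The means were 0.32 ± 0.52 (SD, n = 12) and 0.49 ± 0.45 (SD, n = 10), and their difference was 0.17 ± 0.19 (SE; interval -0.21 to 0.56; limma adjusted p = 0.985). Without slide 1 it was 0.13. The within-slide differences averaged 0.18 and ran from -0.20 to 0.52.

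Retn encodes resistin, which in mice is secreted by fat cells. Normoxia values lay between -0.38 and 0.88 (median 0.18) and hypoxia values between -0.11 and 0.80 (median 0.20). The ranges overlapped, the hypoxia values inside those of normoxia, with 5 of 10 hypoxia mice above the normoxia mean. The difference was 0.02 ± 0.13 (SE; interval -0.24 to 0.28; limma adjusted p = 0.997), and it was -0.07 without slide 1. The second probe gave -0.02. Over the 20 arrays where both probes had a value, their ratios differed by 0.09 at the median and by 0.41 at most.

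Cfd encodes adipsin, the serine protease complement factor D. It varied more between mice than the other adipokines did, with a within-group SD of 0.707, at the 98.6th percentile of all genes. Normoxia values ran from -0.93 over a median of 0.42 to 1.24, a 4.5-fold span, and hypoxia values from -0.12 over 0.38 to 2.67, a 6.92-fold span that includes a single high mouse, replicate 7. The means were 0.30 ± 0.60 (SD, n = 12) and 0.57 ± 0.82 (SD, n = 10). Their difference was 0.27 ± 0.27 (SE; interval -0.28 to 0.82; limma adjusted p = 0.982) and came to 0.03 without hypoxia replicate 7 and to 0.03 without slide 1, on which this mouse lies. It took both signs within slides, from -0.70 to 1.20.

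Rbp4, the carrier that moves retinol through blood, was the only adipokine with a lower mean in hypoxia. It varied little, from -0.26 to 0.34 in normoxia (median 0.16, n = 11, because the spot of normoxia replicate 1 was left out for its quality) and from -0.32 to 0.24 in hypoxia (median 0.02). Both ranges were almost the same. The means were 0.08 ± 0.22 (SD, n = 11) and 0.03 ± 0.18 (SD, n = 10), and the difference was -0.05 ± 0.09 (SE; interval -0.24 to 0.14; limma adjusted p = 0.993). Without slide 1 it was -0.10. Within slides the difference was positive in 3 of 5 and ran from -0.36 to 0.24, with 1 normoxia value on slide 6.

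Nampt makes nicotinamide mononucleotide in the salvage of NAD inside cells and is also released as visfatin. Its values ran from -0.60 over -0.19 to 0.12 in normoxia and from -0.44 over -0.09 to 0.29 in hypoxia. Of the 10 hypoxia mice 8 lay above the normoxia mean and 3 above the highest normoxia mouse. The means were -0.17 ± 0.20 (SD, n = 12) and -0.04 ± 0.22 (SD, n = 10). The difference of 0.13 ± 0.09 (SE; interval -0.06 to 0.32; limma adjusted p = 0.98) was positive within each of the 5 slides that hold both groups, from 0.04 to 0.49.

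Apln encodes apelin, a peptide that acts on vessels and the heart through the receptor Aplnr. Normoxia values ran from -0.87 over -0.42 to 0.48 and hypoxia values from -0.64 over -0.18 to 0.85. Most mice of both groups lay below 0, with a few high mice in each. The means were -0.31 ± 0.38 (SD, n = 12) and -0.13 ± 0.44 (SD, n = 10), with a difference of 0.18 ± 0.16 (SE; interval -0.15 to 0.50; limma adjusted p = 0.98). Apln was the dimmest of the adipokine probes and was well above background on 18 of 22 arrays, all but the 4 arrays of slide 1, so that slide 1 gives no usable difference for it. Within the other 4 slides with both groups the difference was positive, from 0.19 to 0.30. It was 0.40 with the scanner software's own log ratio, and 0.07 without hypoxia replicate 2, the mouse with the highest value.

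Rarres2 encodes chemerin, which attracts immune cells through Cmklr1 and also acts in fat cell differentiation. It ran from -0.92 over -0.17 to 0.25 in normoxia and from -0.50 over -0.14 to 0.49 in hypoxia, and 7 of 10 hypoxia mice lay above the normoxia mean. The medians differed little, and the means were -0.19 ± 0.32 (SD, n = 12) and -0.06 ± 0.29 (SD, n = 10). The difference was 0.13 ± 0.12 (SE; interval -0.12 to 0.38; limma adjusted p = 0.982), with 3 of 5 slides positive, and it was 0.08 without slide 1.

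The intervals set what these arrays could show. For Rbp4 the interval ran from 0.85-fold to 1.1-fold and for Nampt from 0.96-fold to 1.24-fold. For Cfd a rise of up to 1.76-fold and for Lep of up to 1.56-fold lay inside the interval. No spot of an adipokine probe was saturated in either channel on any array.

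**Figure D2:**
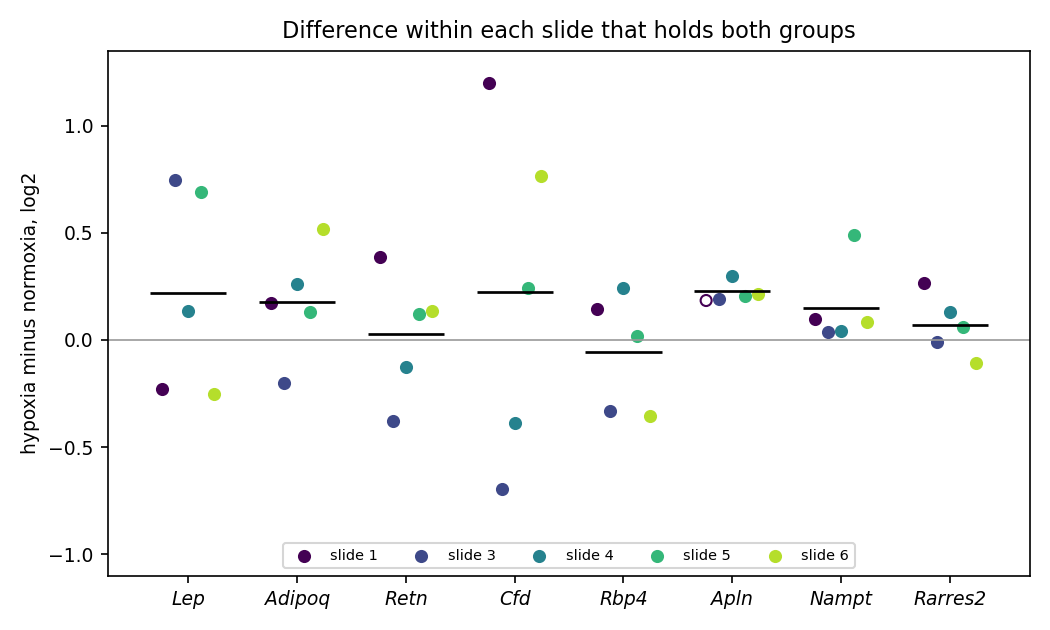
Hypoxia minus normoxia difference of each adipokine transcript (log2, vertical axis) within each of the 5 slides that hold both groups, a colour per slide, each point from 2 mice a group; black lines are the means over slides. The open circle is Apln on slide 1, where the probe was not well above background, and it is left out of the Apln line (mean 0.23). All 5 points lie above 0 for Nampt and the 4 filled ones for Apln, while Lep runs from -0.25 to 0.75 and Cfd from -0.70 to 1.20.

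The adipokines were then compared with each other across mice, after the mean of each group was removed from its mice. Of the 28 pairs, 2 had an adjusted permutation p below 0.05 (100000 resamples within groups, two-sided, adjusted over the 28), and 20 had a correlation above 0. Because slide 1 stood apart, each correlation described is given also with slide means removed and over the 18 arrays of the other slides (17 for Rbp4).

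Adipoq and Retn, both products of fat cells, rose and fell together between mice. Pearson's r was 0.70 (n = 22; permutation p = 0.00071, adjusted p = 0.0188) and Spearman's rho 0.60 (permutation p = 0.00486, adjusted p = 0.0454). With slide means removed r was 0.77 (permutation adjusted p = 0.00896), and without slide 1 it was 0.66 (n = 18; permutation p = 0.00569, adjusted p = 0.0797). Leaving out the 2 mice farthest from the median of Adipoq lowered r to 0.56, which missed the threshold (permutation adjusted p = 0.162). It was 0.67 within normoxia and 0.76 within hypoxia.

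Retn and Rbp4 had an r of 0.67 (n = 21; permutation p = 0.00134, adjusted p = 0.0188) and a rho of 0.66 (permutation p = 0.00221, adjusted p = 0.0413). The value with slide means removed was 0.69 (permutation adjusted p = 0.0395), that without slide 1 was 0.51 (n = 17; permutation adjusted p = 0.229), and that without the 2 mice farthest from the median of Retn was 0.64 (permutation adjusted p = 0.0962). Adipoq and Rbp4 completed the trio: their r of 0.55 (permutation p = 0.00938, adjusted p = 0.0657) became 0.69 with slide means removed (permutation adjusted p = 0.0379). Their pair missed the threshold by rank (rho 0.58; permutation adjusted p = 0.0554), without slide 1 (r = 0.61, n = 17; permutation adjusted p = 0.123) and without the 2 mice farthest from the median of Adipoq (r = 0.43; permutation adjusted p = 0.287).

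Lep and Cfd varied in opposite directions. Their r was -0.54 (n = 22; permutation p = 0.00798, adjusted p = 0.0657) and rho was -0.61 (permutation p = 0.00295, adjusted p = 0.0413). It was -0.69 with slide means removed (permutation adjusted p = 0.0379) and -0.69 again without slide 1 (n = 18; permutation adjusted p = 0.0165), where it was the single pair past the threshold. Without the 2 mice farthest from the median of Lep it was -0.47 (permutation p = 0.0337, adjusted p = 0.188). The sign held within normoxia (-0.48) and within hypoxia (-0.59). Lep and Adipoq, the hormones most often set against each other, gave an r of 0.01 (n = 22; permutation p = 0.966) and a rho of -0.16 (permutation p = 0.481). Without slide 1 their r was -0.45 (permutation p = 0.0492, adjusted p = 0.229).

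**Figure D3:**
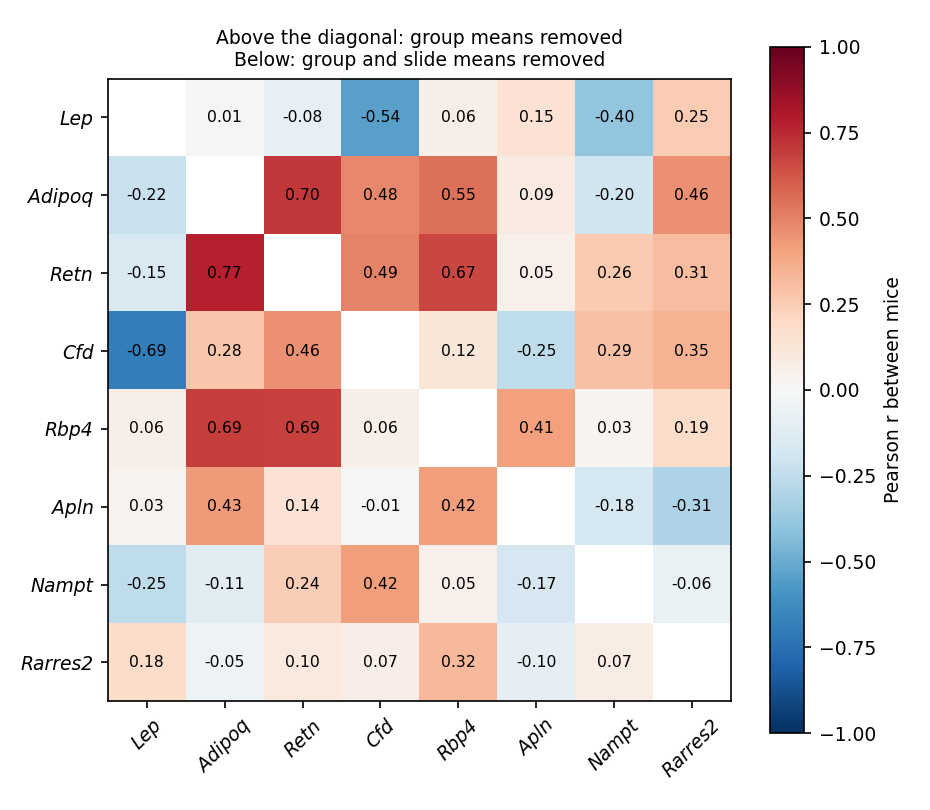
Pearson correlation between mice for each pair of adipokine transcripts, with group means removed (above the diagonal) and with group and slide means removed (below it), blue below 0 and red above 0. Adipoq with Retn (0.70 and 0.77) is the highest on both sides, and Lep with Cfd (-0.54 and -0.69) is the lowest.

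Marker lists of fat cells, endothelium and macrophages were set beside each adipokine in the same way, as 24 relations adjusted together. The score of a list is the mean log2 ratio of its tested markers, each less its own mean over all arrays. A score of 0 is therefore the average of the arrays and not the pool. In bulk tissue fewer cells of a type and less RNA per cell cannot be told apart. With the adjustment over the 24, 5 relations passed in all arrays (3 of them with the fat cell score), 4 with slide means removed, 3 by rank correlation, 2 without slide 1, 1 without the 2 mice farthest from the median score, 0 within normoxia and 2 within hypoxia. Those past the threshold without slide 1 were Lep with endothelium and Apln with macrophages.

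Lep followed the endothelial score closely: r was 0.82 (n = 22; permutation p = 2e-05, adjusted p = 0.00048) and rho 0.80 (permutation p = 3e-05, adjusted p = 0.00072). Of all genes tested, 0.0362% correlated as highly with this score. It was 0.86 with slide means removed (permutation adjusted p = 0.00384), 0.82 without slide 1 (permutation adjusted p = 0.00216) and 0.78 without the 2 mice farthest from the median score (permutation adjusted p = 0.00408). It was 0.78 within normoxia and 0.90 within hypoxia. All 8 markers contributed a correlation above 0, from 0.25 for the angiopoietin receptor Tek to 0.80 for Egfl7, a protein secreted by endothelium, with Tie1 at 0.66 and Cldn5, a tight junction protein, at 0.61. The score itself differed by 0.03 between the groups, and it spanned -0.23 to 0.27 in normoxia and -0.18 to 0.20 in hypoxia. Cfd went the other way, with an r of -0.49 (permutation p = 0.0152, adjusted p = 0.0573) and of -0.59 with slide means removed (permutation adjusted p = 0.0452). This relation missed the threshold by rank (rho -0.41; permutation adjusted p = 0.161) and without slide 1 (r = -0.48; permutation adjusted p = 0.235). It also missed it without the 2 mice farthest from the median score (r = -0.39; permutation adjusted p = 0.279). The relation passed within hypoxia alone (r = -0.71, n = 10; permutation adjusted p = 0.0376) but not within normoxia (r = -0.32, n = 12; permutation adjusted p = 0.613).

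Apln followed the macrophage score, with an r of 0.70 (n = 22; permutation p = 0.00053, adjusted p = 0.00424) and a rho of 0.64 (permutation p = 0.0026, adjusted p = 0.0208). As high a correlation with this score was held by 0.368% of all genes. It was 0.58 with slide means removed (permutation adjusted p = 0.0363), 0.73 without slide 1 (permutation adjusted p = 0.012) and 0.52 without the 2 mice farthest from the median score (permutation p = 0.0182, adjusted p = 0.109). One of the latter was the mouse with the highest Apln, hypoxia replicate 2. Of the 10 markers 9 were above 0, led by the lysozyme gene Lyz2 (0.65), Cd68 (0.62) and Adgre1, a macrophage surface receptor (0.54). The integrin Itgam was below 0 (-0.19). With slide means removed 7 of the 10 were above 0, with Adgre1 at 0.35, and 9 were without slide 1. The macrophage score was higher in hypoxia by 0.12 (-0.23 to 0.14 in normoxia, -0.15 to 0.43 in hypoxia), and its part in the Apln difference was not tested.

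The fat cell score separated slide 1, with a mean of 0.45 there against -0.10 on the other arrays, so that no pooled correlation is given for it. Over the 18 arrays of the other slides the r with this score was 0.18 for Adipoq, 0.38 for Retn, 0.40 for Rarres2, 0.59 for Lep (permutation p = 0.00863, adjusted p = 0.069) and, over 17 arrays, 0.58 for Rbp4 (permutation p = 0.0191, adjusted p = 0.115). None passed. With slide means removed Rbp4 did, at 0.74 (permutation adjusted p = 0.0168). In that setting Retn was at 0.68 and Adipoq at 0.59 (permutation adjusted p = 0.0982 for each). Lep was at 0.46 (permutation adjusted p = 0.195) and Rarres2 at 0.41 (permutation adjusted p = 0.114). Between the groups the fat cell score differed by 0.02.

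**Figure D4:**
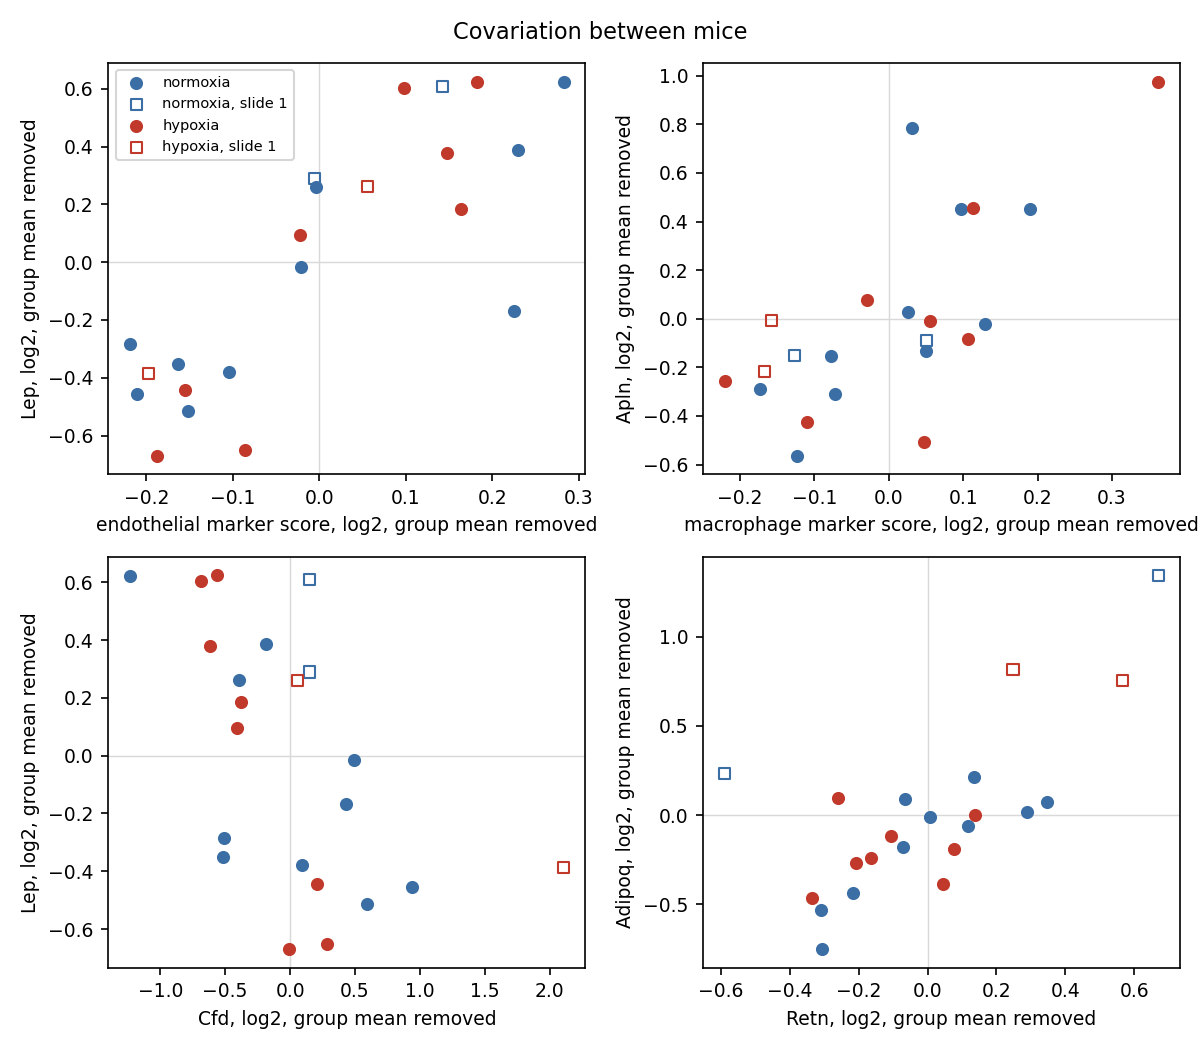
Log2 values per mouse with the group mean removed: Lep against the endothelial score, Apln against the macrophage score, Lep against Cfd, and Adipoq against Retn. Blue is normoxia, red is hypoxia and open squares are slide 1. Lep rises with the endothelial score (r = 0.82) and falls with Cfd (r = -0.54), and 3 of the 4 squares lie apart in Adipoq.

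The genes whose pattern across mice was most like that of each adipokine were ranked by Pearson's r among 12510 named genes, as a description over the same 22 mice. Nearest to Lep were Syp (0.88), which encodes the vesicle protein synaptophysin, Lbp (0.86), the lipopolysaccharide-binding protein, Ubd (0.85), a ubiquitin-like protein, and Gpc1 (0.85), a heparan sulphate proteoglycan. Nearest to Adipoq was Cidec (0.88), a protein of the lipid droplet that is also a marker in the fat cell score. Its r was 0.72 with slide means removed and 0.54 without slide 1. Next came Cyb5a (0.85) and Ms4a4c (0.85), at 0.70 and 0.76 with slide means removed. Retn was closest to Aacs (0.80), which activates ketone bodies for lipid synthesis, then to Ankle2 (0.75) and the imprinted gene Nnat (0.75). Cfd was closest to 1810030O07Rik (0.82), then to Scd1 (0.81), the desaturase that makes oleate, and to Apoe (0.78). Next to Rbp4, over 21 mice, stood H2ac19 (0.77), A530016L24Rik (0.77), Borcs8 (0.75) and Gys2 (0.73), a glycogen synthase.

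The nearest gene to Apln was Cd44 (0.84), the hyaluronan receptor of leukocytes and other cells. It was followed by Chga (0.83), Nos2 (0.81), Pip4k2b (0.80) and S100a4 (0.80). Nampt was closest to Abl1 (0.78), then to Tdpoz8 (0.75), Dcaf8 (0.74) and Nfkbia (0.73), the inhibitor of NF-kappaB. Rarres2 was closest to Trf (0.84), which encodes transferrin. With slide means removed the r was 0.89 for Lep with Syp, 0.86 for Apln with Cd44, 0.87 for Cfd with Apoe and 0.79 for Rarres2 with Trf.

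The other genes of the pathways were listed by function, 95 in all, of which 78 were tested. None passed the limma test after adjustment over all genes, the smallest adjusted p being 0.233. At an unadjusted p under 0.05 there were 6 higher and 2 lower, or 10.3% of the listed genes against 5.3% of all genes. The mean was higher in hypoxia for 57 of the 78, against 50.4% of all genes, and the median difference was 0.08. The lists were chosen with earlier results of these data known, so these shares are a description and not an independent comparison.

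Among 12 receptors tested of 15, 0 were higher and 2 lower at an unadjusted p under 0.05, and the median difference was 0.02. Lepr, the leptin receptor, had a mean of 0.39 ± 0.18 (SD, n = 12) in normoxia and 0.16 ± 0.14 (SD, n = 10) in hypoxia. All 10 hypoxia mice lay below its normoxia mean. The difference of -0.23 ± 0.08 (SE) had a limma p of 0.00606 and an adjusted p of 0.746. Cap1, an intracellular cyclase-associated protein described to bind resistin, differed by -0.26 ± 0.09 (limma adjusted p = 0.746), with 1 of 10 hypoxia mice above the normoxia mean.

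The list of regulators and secretion factors, all 15 tested, had a median difference of 0.09, with 2 higher and 0 lower at an unadjusted p under 0.05. These were Cebpd, a C/EBP transcription factor of early fat cell differentiation (0.53 ± 0.14, SE; limma adjusted p = 0.399), and Foxo1, a transcription factor restrained by insulin (0.25 ± 0.08; limma adjusted p = 0.683). For both, 9 of 10 hypoxia mice lay above the normoxia mean. The second Foxo1 probe gave 0.12.

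In the alternative complement pathway, in which adipsin acts, 7 of 11 genes were tested with a median of 0.10. C3, the central component of complement, differed by 0.13 ± 0.12 (SE; limma adjusted p = 0.98), with 5 of 10 hypoxia mice above the normoxia mean. The retinol list had 7 of 9 tested and a median of 0.13, with Aldh1a1, which makes retinoic acid, at 0.24 ± 0.10 (limma adjusted p = 0.873). The NAD list had 11 of 12 tested and a median of 0.02, and none of its genes had an unadjusted p under 0.05.

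Of 33 other secreted factors 26 were tested, with a median of 0.07. Ccn5, a matricellular protein, was the furthest from 0 at 0.92 ± 0.21 (SE; limma p = 0.000155, adjusted p = 0.233). All 10 hypoxia mice exceeded its normoxia mean. The red blood cell markers differed in the same direction, by 0.39 at the median over the 4 tested, and those of smooth muscle and pericytes by 0.22 over 8, and their part in the Ccn5 difference was not tested.

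**Figure D5:**
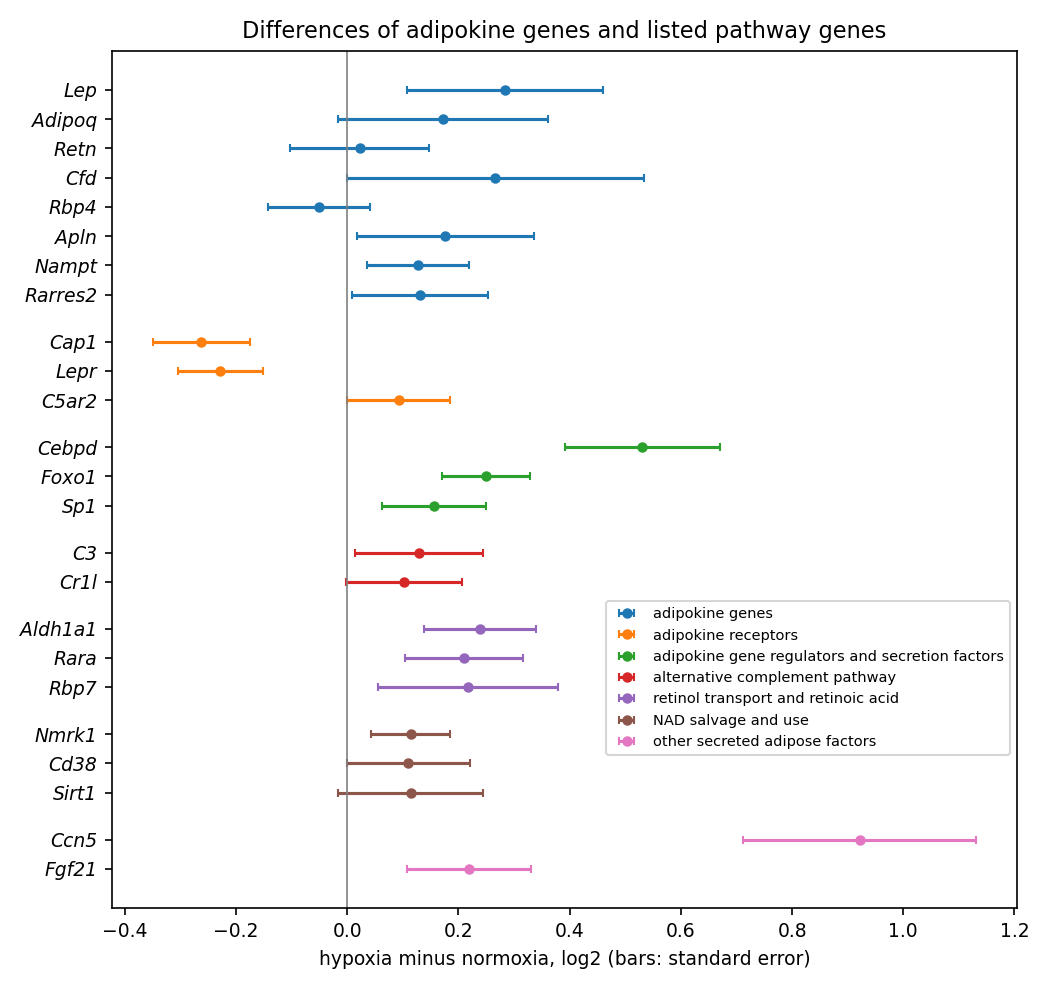
Hypoxia minus normoxia difference (log2, horizontal axis) of the 8 adipokine transcripts and of genes named from each pathway list; points are differences and bars are standard errors, with a colour per list. Ccn5 (0.92) and Cebpd (0.53) lie furthest to the right, and Cap1 (-0.26) and Lepr (-0.23) furthest to the left.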

How the data were processed

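Scanner files came from Agilent Feature Extraction (version 10.7.3.1), per the submitters' processing notes. The signal and background values used here are deposited intensity values, not normalized. Per the file headers, the deposited log10 ratio was background-subtracted and dye-normalized by that software. The deposited value table holds log2 values of 33845 spots with a median of 6.30 on every array. Its columns correlated at 0.902 to 0.999 with log2 Cy5, so it holds levels and not ratios, and the authors' scaling of it was not stated in the labels.

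Per the labels, Cy5 is the mouse and Cy3 the pool, with no dye swap. Background was corrected with normexp (offset 50) and loess was fitted within arrays, giving control spots weight 0 (R 4.3.3, limma 3.58.1). Loess centres each array, so that a shift of most transcripts in one direction would not be seen. Flagged spots were left out and spots of a probe averaged. A probe was tested with Cy5 well above background on at least 10 of 22 arrays and at least 2 values per group. A gene was read from its brightest tested probe. Group was the single term of the fit (lmFit, eBayes), with Benjamini-Hochberg adjustment over 16578 genes and a threshold of 0.05. Precision is limited by the number of arrays, and the standard error over all genes had a median of 0.098. The series text calls the samples biological replicates.

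Names were updated through the RefSeq table of GRCm38.p6, and 12575 of the tested genes were found there. Correlations used residuals from the group means and permutation within groups, or within slides where slide means were removed (numpy 2.4.6). The fit and the correlations were tested on simulated data. The members and lists were chosen with earlier results of these data known. The text names each adipokine, the 3 genes of each pathway list with the smallest unadjusted p, and the 5 genes most like each adipokine, or some of them; 2 of the genes so chosen are not reported here. Alternatives covered background, scaling, filter, probes, slide, array weights, the deposited table and each mouse left out.

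Other markers give the makeup of the samples. The median difference was 0.17 over 8 mesothelial, 0.05 over 9 stem and progenitor, 0.14 over 5 lymphocyte, 0.10 over 4 neutrophil and -0.53 over 4 sperm and epididymis markers, with 0 past the threshold in any marker list. It was 0.01 over 12 fat cell, 0.02 over 8 endothelial and 0.11 over 10 macrophage markers.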

Additional observations from a re-analysis of the deposited data

Results flagged for a closer look

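Cfd in hypoxia replicate 7 was 2.67 on the log2 scale, far above the other 9 hypoxia mice, which lay between -0.12 and 0.85. The gap to the nearest of them was 0.653 of the whole range. The search covered the 8 adipokines in the 10 hypoxia mice and found 1 such case. Chance gives about 1 in 20, a share for each gene searched and not for the search as a whole. The normoxia group, with 12 mice, was not searched. The mouse lies on slide 1, the dim slide. The 2 hypoxia mice of that slide stood above its 2 normoxia mice in Cfd by 1.20 on average, against -0.70 to 0.77 on the other slides with both groups. The part of the slide in this value was not tested.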

How the results depend on the processing

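No adipokine and no listed pathway gene passed under any alternative run. Over single mice left out the difference ran from 0.22 to 0.36 for Lep, 0.08 to 0.29 for Adipoq, -0.041 to 0.083 for Retn, 0.03 to 0.35 for Cfd, -0.08 to -0.01 for Rbp4, 0.07 to 0.25 for Apln, 0.09 to 0.17 for Nampt and 0.07 to 0.18 for Rarres2. Retn turned to -0.0061 without background correction, -0.0716 without slide 1, -0.0727 with array quality weights and -0.13 in the deposited table, where C3 was -0.0261; the cause was not tested. The other 7 adipokines kept their direction in each alternative run, but Apln was not tested with a filter for all arrays.

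Among all genes 1 passed with the scanner software's log ratio, 1 with ratios scaled to a common spread, 1 with slide as a random block, 2 with slide as a fixed block, 2 above background on all arrays, 2 without slide 1 and 4 with array weights, and 0 to 3 without single mice (3 without hypoxia replicate 7, and 1 without each of hypoxia replicate 4 and normoxia replicates 4 and 8); the cause was not tested. Of the adipokine pairs 4 passed with slide means removed, 0 without the 2 farthest mice, 0 in normoxia alone, 0 in hypoxia alone, 1 without slide 1, 7 with the software's log ratio and 28 in the deposited table, which holds levels that share each array's scale. Adipoq with Retn missed the threshold at 0.56 without the 2 farthest mice, 0.67 in normoxia, 0.76 in hypoxia and 0.66 without slide 1, and Retn with Rbp4 at 0.64, 0.80, 0.45 and 0.51 in the same order. Lep with Adipoq was -0.16 by rank, -0.22 with slide means removed, -0.25 in hypoxia, -0.45 without slide 1, -0.19 with the software's ratio and 0.75 in the deposited table. Of the marker relations 3 passed by rank and 2 without slide 1, alternatives chosen after seeing the data, as was the one with slide means removed for these relations. Fewer mice enter the settings that leave arrays out.

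Replicate numbers are not stated to pair the mice. Same-numbered mice correlated at -0.47 to 0.25, 2 of 10 over 0.1, and 0 of 20 mice correlated best with their own number. Low correlations between mice cannot show that a pairing was absent. With the replicate number as a block, over 20 arrays, 0 genes passed limma's test, 565 had an unadjusted p under 0.05 (879 without the block), and the differences were 0.19 for Lep, 0.18 for Adipoq, 0.09 for Retn, 0.42 for Cfd, -0.02 for Rbp4, 0.13 for Apln, 0.18 for Nampt and 0.16 for Rarres2. Slide 1 limits the dim probes, Apln above all.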
